A study of Mus musculus with 24 samples.

Results

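The inflammatory target genes of NF-kB described here are Nfkbia, Tnfaip3, Cxcl1, Cxcl2, Cxcl5, Ccl20, Icam1, Nfkb1, Nfkb2 and Relb. They were taken as a named list, matched by symbol to Ensembl gene IDs, and make up 10 of the 54146 genes in the count tables. Organoids of the mouse small intestine were profiled by RNA-seq in 2 experiments, each with 4 groups of 3 libraries, to ask what the organoids express without the Mediator kinases CDK8 and CDK19. The genotype experiment held WT, CDK8-KO (CDK8-/-), CDK19-KO (CDK19-/-) and Double-KO (CDK8-/- and CDK19-/-) organoids, all of them after 7 days of 600 nM 4-hydroxytamoxifen. The other experiment held WT organoids given DMSO, the solvent, or Senexin B, a small molecule that inhibits CDK8 and CDK19, for 16 h or 24 h. The labels attach the tamoxifen protocol to these libraries as well, and name no dose of Senexin B. In the study's methods, Cdk8 exon 2 is deleted by CreERT2 driven by the Villin promoter, which is active in the intestinal epithelium, and Cdk19 is edited in exon 1 with Cas9 and a guide RNA delivered by lentivirus. Edited organoids were picked singly and expanded as clones, so a knockout group may represent few clones. The labels call the libraries biological triplicates without saying which cultures they came from, so p-values measure the spread between these libraries, part of which may be technical.

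NF-kB is a family of paired transcription factors. In resting cells the pairs are held in the cytoplasm by inhibitor proteins such as IkB-alpha. Cytokines and microbial products activate a kinase that destroys the inhibitor, the factors enter the nucleus, and they switch on chemokines, adhesion molecules and, as a brake, their own inhibitors. In the gut epithelium the pathway answers bacteria and injury, and the chemokines it induces recruit neutrophils and lymphocytes. CDK8 and CDK19 are alternative kinases of the Mediator complex, which joins transcription factors to RNA polymerase II.

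RefSeq promoters on GRCm38.p6, each running from 250 bases before to 50 bases after the transcription start, were found for 7 of the 10 genes. Cxcl5, Nfkb1 and Relb had no entry. They are shown for the 6 genes whose values are discussed most, because they carry the sequence that NF-kB is known to bind. Capitals mark matches of the 10-base kB consensus or of the 9-base core GGAATTTCC on either strand, and these motifs can overlap. Each runs 5′ to 3′ on the strand of its gene, namely chr5:90890995-90891294 (+) for Cxcl1, chr5:90903649-90903948 (+) for Cxcl2, chr12:55492598-55492897 (-) for Nfkbia, chr10:19015361-19015660 (-) for Tnfaip3, chr1:83116516-83116815 (+) for Ccl20 and chr9:21015690-21015989 (+) for Icam1.
Cxcl1: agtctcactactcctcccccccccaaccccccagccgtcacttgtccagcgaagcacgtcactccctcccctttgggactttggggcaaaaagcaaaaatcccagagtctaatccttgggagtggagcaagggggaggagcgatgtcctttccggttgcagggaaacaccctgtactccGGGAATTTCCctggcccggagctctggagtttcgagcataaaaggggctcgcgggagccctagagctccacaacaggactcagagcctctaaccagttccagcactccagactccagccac
Cxcl2: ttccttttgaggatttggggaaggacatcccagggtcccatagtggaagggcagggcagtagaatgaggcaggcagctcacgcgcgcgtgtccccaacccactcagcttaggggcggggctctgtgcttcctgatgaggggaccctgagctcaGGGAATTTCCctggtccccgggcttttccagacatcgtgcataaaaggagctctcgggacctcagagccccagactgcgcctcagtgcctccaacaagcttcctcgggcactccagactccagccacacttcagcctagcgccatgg
Nfkbia: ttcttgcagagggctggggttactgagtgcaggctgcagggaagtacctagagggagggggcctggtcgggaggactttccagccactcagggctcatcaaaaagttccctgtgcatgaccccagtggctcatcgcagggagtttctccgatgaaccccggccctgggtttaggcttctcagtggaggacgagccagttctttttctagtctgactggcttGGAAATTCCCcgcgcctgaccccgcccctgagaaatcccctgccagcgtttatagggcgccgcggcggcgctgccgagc
Tnfaip3: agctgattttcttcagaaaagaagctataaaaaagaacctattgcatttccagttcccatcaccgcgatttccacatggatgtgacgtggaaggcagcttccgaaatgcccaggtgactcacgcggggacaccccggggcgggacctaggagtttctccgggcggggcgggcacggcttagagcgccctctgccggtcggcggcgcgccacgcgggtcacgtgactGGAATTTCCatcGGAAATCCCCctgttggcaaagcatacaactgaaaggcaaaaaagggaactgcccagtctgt
Ccl20: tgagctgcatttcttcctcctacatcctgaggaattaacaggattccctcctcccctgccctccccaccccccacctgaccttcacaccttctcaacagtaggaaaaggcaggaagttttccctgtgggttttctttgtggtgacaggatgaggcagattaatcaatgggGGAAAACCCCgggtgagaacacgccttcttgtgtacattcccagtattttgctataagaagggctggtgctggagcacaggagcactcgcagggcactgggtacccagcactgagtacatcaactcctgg
Icam1: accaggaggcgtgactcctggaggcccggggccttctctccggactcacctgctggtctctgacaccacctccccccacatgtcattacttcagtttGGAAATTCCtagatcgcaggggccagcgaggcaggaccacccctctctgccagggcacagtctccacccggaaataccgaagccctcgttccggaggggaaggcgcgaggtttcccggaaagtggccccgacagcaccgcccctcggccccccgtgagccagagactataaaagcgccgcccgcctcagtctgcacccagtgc
The neighbouring genes Cxcl1 and Cxcl2 held the same 10 bases, GGGAATTTCC, beginning 71 and 97 bases before the start. In Nfkbia the match GGAAATTCCC began 29 bases before the start, and Tnfaip3 held GGAATTTCC at 24 bases and GGAAATCCCC at 12 bases. Ccl20 held the consensus alone, as GGAAAACCCC at 80 bases, and Icam1 the core alone, as GGAAATTCC at 153 bases. The 7 genes with an entry had 10 promoters in the table, since Nfkb2 has 3 and Tnfaip3 has 2. The consensus occurred in 8 of these 10, all 3 of Nfkb2 included, of which 2 overlap and share a single match, against 5.80% of the 32851 promoters searched (the whole table but 1 chromosome), and the core in 5 of the 10 against 0.317%. The genes were listed as NF-kB targets, so a high share of matches follows in part from that choice and is no independent result. A match describes the letters and is not a measured binding site.

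The libraries were even in depth, with 14636861 to 15473180 reads counted on genes in the genotype experiment and 27075937 to 28405118 in the Senexin B experiment. Gene-level counts cannot show the deletion of the single Cdk8 exon. The study's methods describe checks of the Cdk8 deletion in organoids by genotyping, qPCR and Western blotting. They describe checks of the Cdk19 edit by sequencing, qPCR and Western blotting. None of these checks is analysed here. Cdk8 stood at 42.5, 43.2 and 35.8 CPM (counts per 1000000 reads on genes, TMM-scaled) in WT, 45.8, 57.3 and 42.4 in CDK8-KO, 46.5, 46.5 and 48.6 in CDK19-KO, and 47.3, 44.1 and 43.2 in Double-KO. Cdk19 stood at 47.6, 50.1 and 48.6 CPM in WT and 47.0, 43.2 and 38.9 in CDK8-KO. It was lower in most libraries without CDK19, at 48.8, 28.1 and 28.3 CPM in CDK19-KO and 27.0, 23.8 and 51.7 in Double-KO. The libraries labelled CDK19-KO replicate 1 and Double-KO replicate 3 thus held Cdk19 at the WT level, unlike the other libraries of their groups, and results that rest on them are also given without both. Why these libraries differ was not tested. The labels put the tissue as intestinal organoids, but a cell type field of the genotype libraries reads 4T1, a mammary carcinoma line. The data show intestinal epithelium, with Epcam at 19443 to 39591 counts, Vil1 at 11558 to 24447 and the Paneth cell lysozyme gene Lyz1 at 4062 to 30161 over the 24 libraries. Markers of other cells that make inflammatory mediators were low but not all absent. Of 8 leukocyte and macrophage markers, Adgre1 was at 0 counts in 23 libraries and at most 1 and Ptprc at 0 in 8 and at most 21, while Csf1r had 12 to 222 counts and Cd68 29 to 107. Of 6 fibroblast markers, Dcn was at 0 in 22 libraries and at most 1, while Pdgfrb had 13 to 78 counts.

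In WT organoids the inhibitor and the factor subunits were well expressed and the chemokines were close to silent. Divided by exon length, WT levels were 61.4 ± 3.34 CPM per kb for Nfkbia (SD, n = 3), 19.9 ± 0.740 for Relb, 13.0 ± 0.378 for Nfkb2, 9.46 ± 0.295 for Nfkb1 and 3.65 ± 0.379 for Tnfaip3. The levels of Ccl20, Cxcl1 and Icam1 were 1.92 ± 0.236, 0.633 ± 0.116 and 0.273 ± 0.0419 CPM per kb. None of these 8 genes overlapped its neighbour in that order over the 3 WT libraries. Cxcl5 and Cxcl2, at 1 count each over the 3 WT libraries, could not be ordered. In DMSO 16h the order of the 8 levels per kb was the same, from 33.7 ± 3.05 CPM per kb for Nfkbia (SD, n = 3) to 0.198 ± 0.00712 for Icam1, but Nfkb2 there overlapped both Relb and Nfkb1. The experiments were normalised separately and differ in library type, so their levels were not compared with each other.

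Filtering on low counts left 15602 genes to test in the genotype experiment and 15467 in the Senexin B experiment, and 8 of the 10 genes in each. Cxcl2 and Cxcl5 did not pass it and are given as counts. Genes with an adjusted p-value under 0.05 in edgeR's quasi-likelihood test were called, and the 3 comparisons with WT share the same 3 WT libraries. In bulk RNA, fewer cells of a type and less RNA per cell cannot be told apart.

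Loss of CDK8, alone or with CDK19, went with higher Tnfaip3, Cxcl1 and Ccl20, though Cxcl1 and Ccl20 were called only in Double-KO. Their log2 fold changes against WT were 1.46 and 1.69 in CDK8-KO and 1.80 and 1.55 in Double-KO. Neither gene was called between CDK8-KO and Double-KO. Of these calls against WT, only that of Tnfaip3 in Double-KO held in every alternative analysis. Of the 8 genes tested, 1 was called in CDK8-KO against WT, where 5.15% of all genes tested were called, 2.79% higher and 2.36% lower. In Double-KO against WT 3 were called, all higher, where 17.3% of all genes were called, 9.41% higher and 7.90% lower. In CDK19-KO against WT edgeR called 0 of the 8 and 0% of all genes, with 0 of the 8 and 1691 of all genes (10.8%) below 0.05 before adjustment, while DESeq2 called 0 of the 8 and 298 of all genes. Without both libraries with Cdk19 at the WT level edgeR called 0 of the 8 and 666 of all genes there, and without CDK19-KO replicate 1 alone 521 of all genes. The median log2 fold change of the 8 genes was 0.55 in CDK8-KO, 0.01 in CDK19-KO and 0.38 in Double-KO, beside 0.01, -0.02 and -0.01 over all genes tested.

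**Figure D1:**
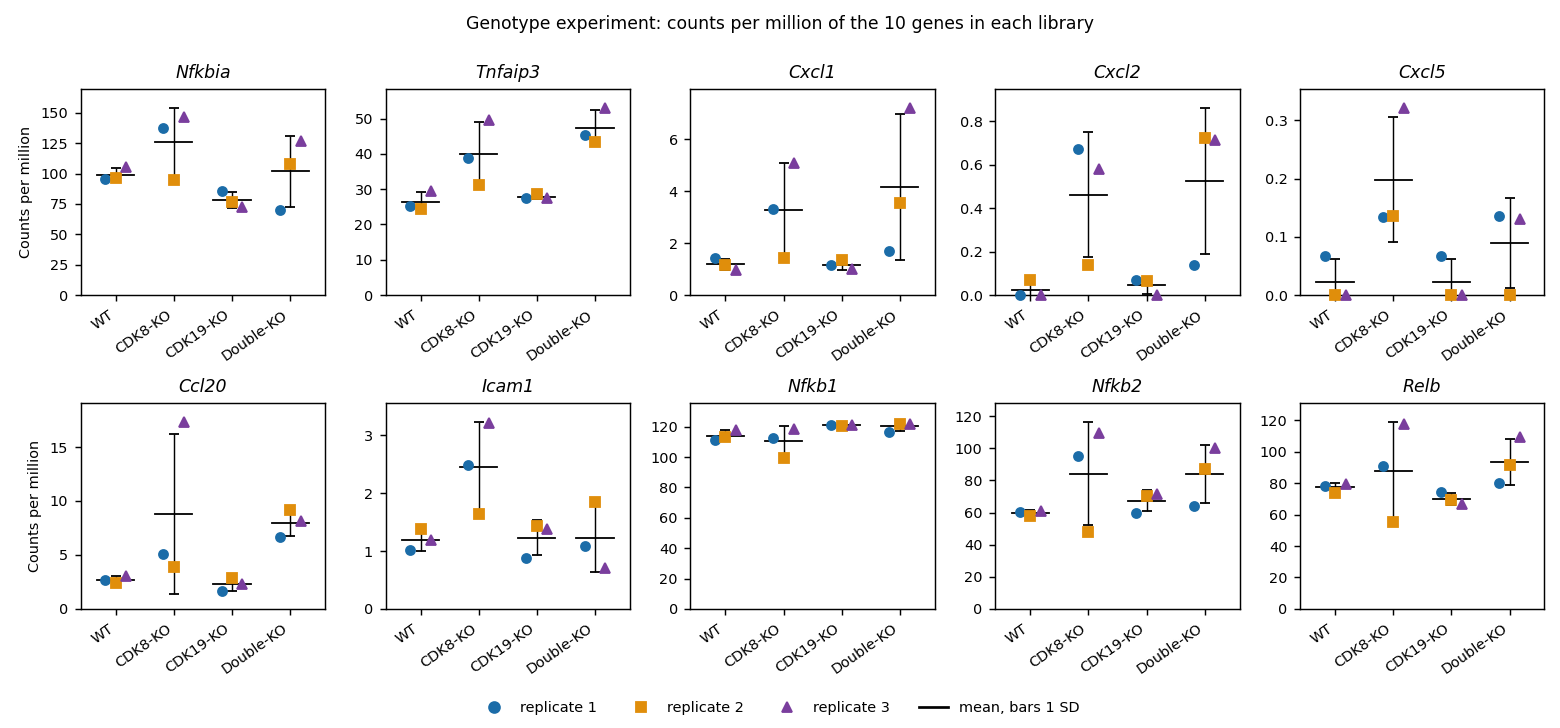
CPM of each gene on a linear axis from 0 in the 12 libraries of the genotype experiment, a panel per gene, with symbols for the 3 replicates, a horizontal line for the group mean and error bars of 1 SD. Tnfaip3 in Double-KO lies between 43.4 and 53.0 CPM, above the highest WT library at 29.5, and Nfkb1 stays between 99.7 and 122 CPM in every library.

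Tnfaip3 encodes A20, a ubiquitin-editing enzyme that switches off NF-kB signalling. It stood at 25.2, 24.4 and 29.5 CPM in WT, 38.9, 31.2 and 49.5 in CDK8-KO, 27.5, 28.6 and 27.5 in CDK19-KO, and 45.4, 43.4 and 53.0 in Double-KO. All CDK8-KO and all Double-KO libraries lay above all WT libraries, and the Double-KO libraries lay also above all CDK19-KO libraries. The log2 fold change against WT was 0.60 ± 0.149 (SE, adjusted p = 0.0411) in CDK8-KO, a 1.51-fold level, and 0.84 ± 0.149 (adjusted p = 0.00328) in Double-KO, a 1.79-fold level. In CDK19-KO it was 0.08 ± 0.150 (adjusted p = 0.908). The Double-KO call held in 14 of 14 alternative analyses, whereas the CDK8-KO call held in 6 of 13 and was lost without CDK8-KO replicate 1 (adjusted p = 0.0874), without CDK8-KO replicate 3 (log2 fold change 0.40, adjusted p = 0.123) and without any of the WT libraries (adjusted p = 0.155, 0.160 and 0.0705). It was lost also with unstranded counts and with only the groups compared in the fit.

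Nfkbia encodes IkB-alpha, the inhibitor that NF-kB rapidly induces as a brake, and it showed no called change. Its levels were 95.3, 96.3 and 105 CPM in WT, 137, 94.4 and 147 in CDK8-KO, 85.4, 76.3 and 72.5 in CDK19-KO, and 70.0, 108 and 127 in Double-KO. The 3 CDK19-KO libraries lay below all WT libraries, while CDK8-KO and Double-KO straddled them. The log2 fold changes against WT were 0.35 ± 0.197 in CDK8-KO (adjusted p = 0.333), -0.34 ± 0.198 in CDK19-KO (adjusted p = 0.591) and 0.04 ± 0.197 in Double-KO (adjusted p = 0.908). Among all genes, 10.8% had every CDK19-KO library below every WT library.

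Cxcl1 encodes a chemokine that attracts neutrophils through the receptor CXCR2, and its counts were low. They were 21, 17 and 14 in WT, 49, 21 and 79 in CDK8-KO, 17, 21 and 15 in CDK19-KO, and 25, 54 and 111 in Double-KO. As levels these were 1.41, 1.17 and 0.978 CPM in WT, 3.30, 1.43 and 5.08 in CDK8-KO, 1.15, 1.37 and 0.991 in CDK19-KO, and 1.71, 3.56 and 7.21 in Double-KO. Every CDK8-KO and Double-KO library was above every WT library, though CDK8-KO replicate 2 and Double-KO replicate 1 only just, and the highest Double-KO library held 4.23 times the level of the lowest. In Double-KO the log2 fold change was 1.80 ± 0.523 (adjusted p = 0.0343), or 3.49-fold, and in CDK8-KO it was 1.46 ± 0.527 (adjusted p = 0.134). The CDK19-KO value was -0.02 ± 0.566 (adjusted p = 0.996), with a 95% confidence interval from -1.25 to 1.21. The Double-KO call held in 7 of 14 alternatives. Without Double-KO replicate 3, the library with the highest Cxcl1 and with WT-like Cdk19 counts, it was 1.14 (adjusted p = 0.133), and without both libraries with Cdk19 at the WT level it was 1.14 (adjusted p = 0.139). It was lost as well without Double-KO replicate 2 (adjusted p = 0.0556) and without WT replicate 1, 2 or 3 (adjusted p = 0.0839, 0.101 and 0.103).

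Cxcl2 and Cxcl5, chemokines that act on the same receptor as Cxcl1, were at the limit of detection. The counts of Cxcl2 were 0, 1 and 0 in WT, 10, 2 and 9 in CDK8-KO, 1, 1 and 0 in CDK19-KO, and 2, 11 and 11 in Double-KO. Those of Cxcl5 were 1, 0 and 0 in WT, 2, 2 and 5 in CDK8-KO, 1, 0 and 0 in CDK19-KO, and 2, 0 and 2 in Double-KO. Cxcl2 was above WT in every library of CDK8-KO and Double-KO, and its lowest libraries, CDK8-KO replicate 2 and Double-KO replicate 1, were those with the lowest Cxcl1. Summed over libraries and scaled by depth, Cxcl2 in CDK8-KO was 20.4 times WT (21 against 1 count, exact 95% interval 3.28 to 843) and in Double-KO 23.2 times (24 against 1, 3.78 to 954), with intervals that cover counting error only. For Cxcl5 the ratios were 8.74 in CDK8-KO (9 against 1, 1.21 to 383) and 3.87 in Double-KO (4 against 1, 0.383 to 190). With no filter on low counts, edgeR called Cxcl2 in CDK8-KO (adjusted p = 0.0267) and in Double-KO (adjusted p = 0.0079), where DESeq2 called it as well (adjusted p = 0.0230).

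Ccl20 encodes the ligand of CCR6, which draws lymphocytes and dendritic cells to the epithelium. Its levels were 2.69, 2.41 and 3.07 CPM in WT, 5.12, 3.89 and 17.4 in CDK8-KO, 1.69, 2.86 and 2.31 in CDK19-KO, and 6.69, 9.16 and 8.12 in Double-KO. Both groups without CDK8 lay wholly above WT, and a single library, CDK8-KO replicate 3, stood 4.46 times above the lowest of its group. The log2 fold change was 1.55 ± 0.466 in Double-KO (adjusted p = 0.0392), or 2.93-fold, and 1.69 ± 0.466 in CDK8-KO (adjusted p = 0.0586). In CDK19-KO it was -0.25 ± 0.494 (adjusted p = 0.919). DESeq2 called the CDK8-KO difference (adjusted p = 0.00649), as did edgeR without CDK8-KO replicate 2 (2.04, adjusted p = 0.0217), and without CDK8-KO replicate 3 it was 0.71 (adjusted p = 0.165). The Double-KO call held in 7 of 14 alternatives. It was lost without both libraries with Cdk19 at the WT level (1.54, adjusted p = 0.0704), without Double-KO replicate 1, 2 or 3 (adjusted p = 0.0593, 0.0969 and 0.0701) and without WT replicate 1, 2 or 3 (adjusted p = 0.115, 0.126 and 0.0854), all at values of 1.44 to 1.68.

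Icam1 encodes an adhesion molecule that leukocytes bind through integrins. Its levels were 1.01, 1.37 and 1.19 CPM in WT, 2.49, 1.64 and 3.21 in CDK8-KO, 0.876, 1.43 and 1.39 in CDK19-KO, and 1.09, 1.85 and 0.715 in Double-KO. CDK8-KO lay above all WT libraries while Double-KO surrounded them. The log2 fold changes were 1.04 ± 0.369 in CDK8-KO (adjusted p = 0.129), 0.05 ± 0.387 in CDK19-KO (adjusted p = 0.983) and 0.03 ± 0.387 in Double-KO (adjusted p = 0.964). Exons of Icam1 share 511 bases with a gene on the opposite strand, and the genotype counts carry no strand information, so reads of the 2 genes cannot be told apart there.

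The subunit genes Nfkb1 (p105 and p50), Nfkb2 (p100 and p52) and Relb, the partner of p52 in the non-canonical pathway, showed no called change with genotype. Nfkb1 was the steadiest, at 111, 113 and 118 CPM in WT, 113, 99.7 and 119 in CDK8-KO, 121, 121 and 121 in CDK19-KO, and 117, 122 and 122 in Double-KO. Nfkb2 stood at 60.3, 57.8 and 61.1 CPM in WT, 95.2, 47.9 and 109.7 in CDK8-KO, 59.9, 70.5 and 71.8 in CDK19-KO, and 64.3, 87.2 and 99.9 in Double-KO. Relb stood at 78.5, 74.0 and 79.3 CPM in WT, 90.8, 55.2 and 118 in CDK8-KO, 74.3, 69.2 and 66.5 in CDK19-KO, and 80.3, 91.3 and 109 in Double-KO. For Nfkb2 and Relb, CDK8-KO replicate 2 lay below WT and the other CDK8-KO libraries above, whereas all Double-KO libraries lay above WT. The log2 fold changes in Double-KO were 0.49 ± 0.242 for Nfkb2 (adjusted p = 0.187) and 0.28 ± 0.205 for Relb (adjusted p = 0.380), and in CDK8-KO 0.50 ± 0.242 (adjusted p = 0.262) and 0.19 ± 0.205 (adjusted p = 0.655). Without CDK8-KO replicate 2, Nfkb2 was called there at 0.78 (adjusted p = 0.0217). In CDK19-KO they were 0.17 ± 0.242 for Nfkb2 (adjusted p = 0.869) and -0.14 ± 0.206 for Relb (adjusted p = 0.875). Those of Nfkb1 were -0.05, 0.08 and 0.08 in CDK8-KO, CDK19-KO and Double-KO, each with an SE of 0.0754 (adjusted p = 0.768, 0.786 and 0.524). Nfkb2 shares 830 exonic bases with genes on the opposite strand, which limits its genotype counts as for Icam1.

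Counted by groups that do not overlap, 4 of the 8 genes tested had every CDK8-KO library above every WT library (Tnfaip3, Cxcl1, Ccl20 and Icam1), against 14.9% of all genes, and none had every one below, against 14.7%. In Double-KO this held for 5 (Tnfaip3, Cxcl1, Ccl20, Nfkb2 and Relb), against 18.7% of all genes, and for none was every library below WT, against 20.1%. In CDK19-KO Nfkb1 lay wholly above and Nfkbia wholly below WT, against 9.13% and 10.8% of all genes.

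**Figure D2:**
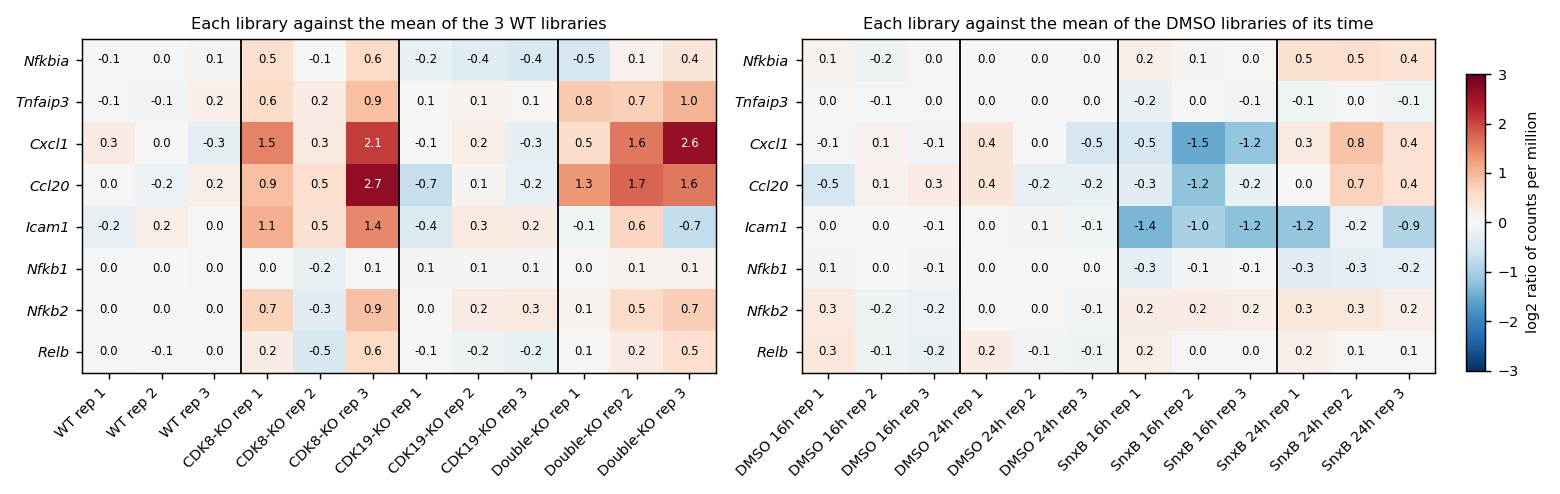
Log2 ratio of each library to the mean of its control libraries (WT, DMSO 16h or DMSO 24h) as a colour, with genes in rows and libraries in columns. CDK8-KO replicate 2 and Double-KO replicate 1 have the lowest ratios of their groups for Cxcl1, Nfkbia and Relb, and replicate 3 of both groups the highest.

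Within both groups without CDK8, several genes were high or low in the same libraries. Relative to the WT mean, CDK8-KO replicates 1, 2 and 3 stood at 1.48, 0.27 and 2.10 on the log2 scale for Cxcl1, 0.91, 0.51 and 2.67 for Ccl20 and 0.47, -0.07 and 0.57 for Nfkbia. Replicate 2 was the lowest of the 3 for each of them, and also for Tnfaip3, Icam1, Nfkb1, Nfkb2 and Relb, and replicate 3 was the highest for all 8. In Double-KO the ratios were 0.52, 1.58 and 2.6 for Cxcl1, -0.50, 0.13 and 0.36 for Nfkbia and 0.06, 0.24 and 0.50 for Relb, with replicate 1 lowest and replicate 3 highest for each. Ccl20 and Icam1 did not follow this order in Double-KO, where replicate 2 was highest, nor did Tnfaip3, for which it was lowest. The source of this spread was not tested. Replicate numbers were not taken to pair libraries across genotypes, since in no comparison did all 3 pairs of same-numbered libraries deviate together.

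Comparison of Double-KO with each single knockout asked whether the loss of the other kinase added to the change. Against CDK8-KO, edgeR called 0 of the 8 genes (0.0256% of all genes), with 1 of the 8, Icam1, below 0.05 before adjustment (15.5% of all genes) and 0 called by DESeq2. The interval of the difference was -0.07 to 0.56 for Tnfaip3, -0.70 to 1.39 for Cxcl1 and -1.08 to 0.80 for Ccl20 on the log2 scale, so changes of 2-fold remained possible for the chemokines. Icam1 differed by -1.01 ± 0.367 (adjusted p = 0.231). Against CDK19-KO, 3 of the 8 were called, all higher, where 25.3% of all genes were called and 14.4% called higher. These were Tnfaip3 (0.76 ± 0.148, adjusted p = 0.00338), Ccl20 (1.80 ± 0.473, adjusted p = 0.0156) and Cxcl1 (1.83 ± 0.522, adjusted p = 0.0233). Without both libraries with Cdk19 at the WT level, Cxcl1 was 1.14 (adjusted p = 0.156) and Ccl20 was no longer called (adjusted p = 0.0736), and the call of Tnfaip3 held in every alternative. Cxcl1 also lost its call without Double-KO replicate 3 (adjusted p = 0.103) or without CDK19-KO replicate 1, 2 or 3 (adjusted p = 0.0535, 0.0601 and 0.0815), and Ccl20 without CDK19-KO replicate 3 (adjusted p = 0.0537). The counts of Cxcl2 summed to 24 in Double-KO and 2 in CDK19-KO, a ratio of 12 (exact 95% interval 2.99 to 105). Nfkbia stood at 0.38 ± 0.198 (adjusted p = 0.176) and was called without Double-KO replicate 1 (adjusted p = 0.0287).

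The departure from additivity, the Double-KO effect minus the sum of the effects of both single knockouts on the log2 scale, was called by edgeR for 0 of the 8 genes (0.0256% of all genes), with 0 of the 8 below 0.05 before adjustment (14.5% of all genes) and 0 called by DESeq2. Its interval ran from -0.29 to 0.62 for Tnfaip3, -1.25 to 1.98 for Cxcl1 and -1.32 to 1.53 for Ccl20. The largest departure of the 8 was that of Icam1, at -1.06 ± 0.533 (adjusted p = 0.393).

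**Figure D3:**
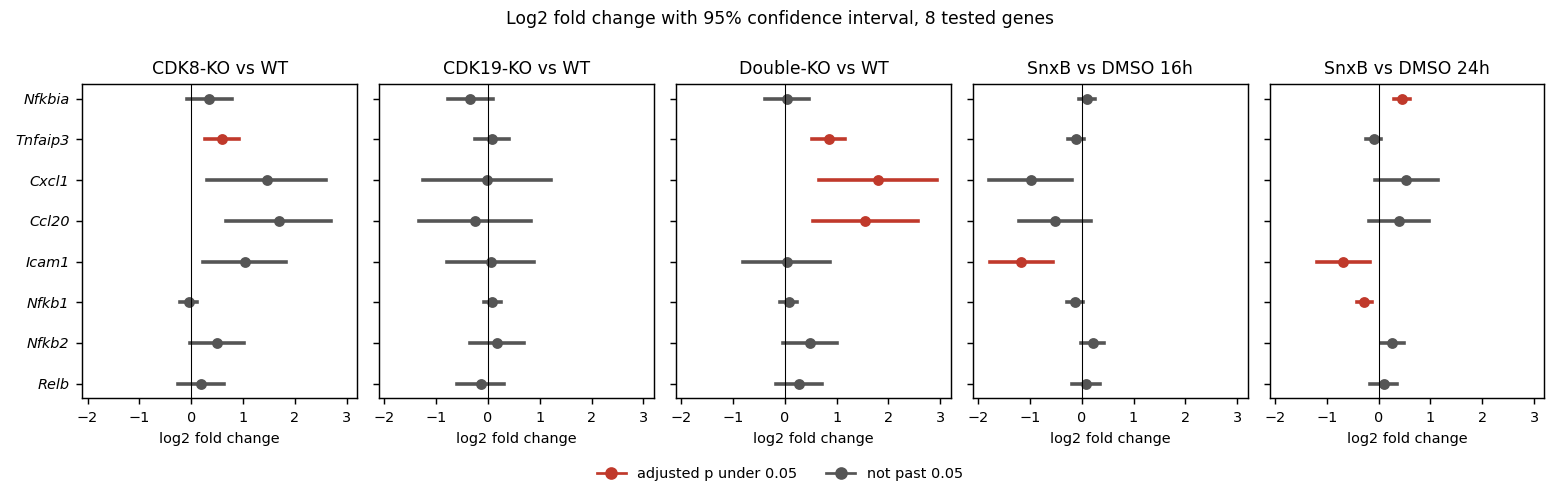
Log2 fold change of each of the 8 tested genes in 5 comparisons, with bars for 95% confidence intervals and red for an adjusted p-value under 0.05. Cxcl1 and Ccl20 have the widest intervals, and Icam1 is red only with Senexin B, at -1.17 and -0.68.

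Around these 10 genes, a list of 111 other genes of the pathway was examined, of which 91 were tested in the genotype experiment. In CDK8-KO 6 were higher and 2 lower (8.79%, against 5.15% of all genes), in CDK19-KO 0 and 0 (0%, against 0%), and in Double-KO 8 higher and 2 lower (11%, against 17.3%). In CDK8-KO 10 were higher without CDK8-KO replicate 2 and 1 to 3 without any other library of the comparison. In Double-KO 4 were higher without WT replicate 1, and 5 without WT replicate 2 or Double-KO replicate 3. Without both libraries with Cdk19 at the WT level, 4 were higher and 3 lower in CDK19-KO, and 9 higher and 4 lower in Double-KO, of 92 tested. Double-KO against CDK19-KO gave 18 higher and 2 lower (22.0%, against 25.3% of all genes), with 11 higher without CDK19-KO replicate 2, and against CDK8-KO 0 and 0, or 4 and 2 without CDK8-KO replicate 3. For reading the lists below, 2.79% of all genes were called higher and 2.36% lower in CDK8-KO, 9.41% and 7.90% in Double-KO, and 14.4% and 11% in Double-KO against CDK19-KO. Il33, Cxcl9 and Vcam1 lay below the filter's minimum of 10 counts in every WT library and entered the test through libraries where they were high, so their calls follow from the filter in part and they are given as counts. Without them 4 pathway genes were higher in CDK8-KO and 5 in Double-KO. For Double-KO against CDK19-KO, Vcam1 and Ptgs2 lay below that minimum in every CDK19-KO library, and without them 16 were higher.

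Of the ligands that feed the pathway, 5 of 10 were tested. The alarmin gene Il33 had 2 to 8 counts in each WT library, 12 to 68 in CDK8-KO and 67 to 75 in Double-KO. In Double-KO the cytokine genes Il18 (1.20 ± 0.25, adjusted p = 0.00789) and Il1a (1.77 ± 0.51, adjusted p = 0.0334) rose. Apart from Il33, 0 of the 5 ligands were called higher in CDK8-KO and 2 in Double-KO. Il18 stood at 11.1 to 12 CPM in WT, 18.1 to 34.9 in Double-KO and 4.16 to 7.89 in CDK19-KO, where it was not called. Of 16 receptors tested, 0 were called in CDK8-KO and 1 in Double-KO, the RNA sensor Tlr3 (0.90 ± 0.15, adjusted p = 0.00271).

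Of 22 adaptors and kinases, 0 were called in CDK8-KO and 2 in Double-KO, Irak2 (0.49 ± 0.13, adjusted p = 0.0216), a kinase of the interleukin-1 receptor pathway, and Tab1 (-0.38 ± 0.09, adjusted p = 0.0165), a partner of the kinase TAK1. None of 10 other inhibitors and neither of the 2 other subunits, Rela and Rel, was called in the comparisons of the 3 genotypes with WT. Of 10 other chemokines tested, CDK8-KO had 0 higher and 2 lower, namely Ccl28 (-0.57 ± 0.08, adjusted p = 0.00275) and Ccl25 (-0.42 ± 0.08, adjusted p = 0.0155), homeostatic chemokines of mucosal epithelium. In Double-KO Cxcl16 rose (1.15 ± 0.32, adjusted p = 0.0296) and Ccl28 fell (-0.30 ± 0.08, adjusted p = 0.0257). The other chemokine called there, Cxcl9, had 1 to 3 counts in each WT library and 9 to 28 in Double-KO.

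Among 26 other targets tested, 5 were higher in CDK8-KO, 1 in Double-KO and 0 lower in either, and apart from Vcam1 the numbers higher were 4 and 0. Vcam1, which encodes an adhesion molecule as Icam1 does, was called in both and had 2 to 3 counts in each WT library, 18 to 30 in CDK8-KO and 8 to 28 in Double-KO. In CDK8-KO the others called included Ptgs2, which encodes an inducible cyclooxygenase (2.40 ± 0.45, adjusted p = 0.0123), the cyclin gene Ccnd1 (0.53 ± 0.12, adjusted p = 0.0305) and Duox2, an epithelial oxidase (1.60 ± 0.39, adjusted p = 0.0384). Ptgs2 stood at 0.344 to 0.942 CPM in WT, 2.57 to 4.03 in CDK8-KO and 0.614 to 1.30 in Double-KO.

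**Figure D4:**
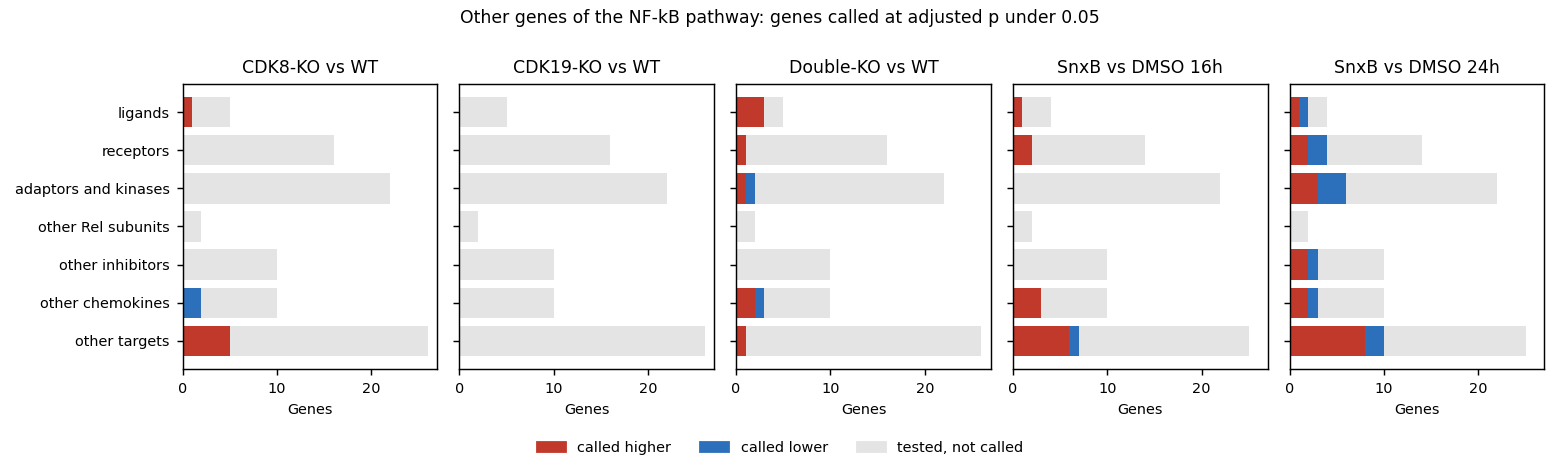
Number of genes called higher (red), called lower (blue) and tested but not called (grey) in each list of NF-kB pathway genes, for the 3 genotypes against WT and Senexin B against DMSO at 16 h and 24 h. CDK19-KO has none, and Senexin B at 24 h has the most, with 18 higher and 10 lower among the 87 pathway genes tested outside the 10.

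Summed markers of several epithelial cell types differed in the same groups. The summed level of 5 Paneth cell markers was 838 to 1106 CPM in WT, 930 to 1075 in CDK19-KO, 2620 to 3558 in CDK8-KO and 1746 to 3712 in Double-KO, and all 5 were called higher in both groups without CDK8. Summed enterocyte markers (5 genes) were at 5134 to 5203 CPM in WT, 5263 to 6050 in CDK8-KO, 3203 to 3956 in CDK19-KO and 6589 to 9493 in Double-KO. Summed epithelial markers (7 genes) were at 6825 to 7323 CPM in WT, 7173 to 8261 in CDK8-KO and 7610 to 8161 in Double-KO. Summed tuft cell markers (4 genes) were at 40.4 to 62.7 CPM in WT and 13.7 to 35.2 in Double-KO, and summed M cell markers (5 genes, with the defining gene Gp2 at 0 counts in 20 of the 24 libraries) at 98.2 to 115 and 117 to 182. Summed goblet cell markers (4 genes) were at 1975 to 2800 CPM in WT and 2847 to 3384 in CDK8-KO, and summed fibroblast markers at 2.51 to 3.03 in WT, 1.09 to 2.49 in CDK8-KO and 1.25 to 1.49 in Double-KO. The enterocyte, tuft, M cell, goblet and fibroblast ranges above lay apart from WT, whereas all those of CDK19-KO other than enterocyte, M cell markers in CDK8-KO (114 to 196 CPM), tuft cell markers in CDK8-KO (46.1 to 72.5) and goblet cell markers in Double-KO (2301 to 3811) overlapped it. The M cell sums in CDK8-KO replicates 1, 2 and 3 were 179, 114 and 196 CPM, lowest in replicate 2 and highest in replicate 3 as for the 8 NF-kB targets tested. The epithelial, goblet and endothelial sums had the same order in CDK8-KO, and the other sums did not. In Double-KO the M cell sums were 117, 182 and 166 CPM, highest in replicate 2. Summed endothelial markers were at 1.14 to 3.02 CPM in WT, 2.94 to 6.36 in CDK8-KO and 3.69 to 7.08 in Double-KO, with the defining gene Cdh5 at 0 counts in 17 of the 24 libraries. Summed leukocyte markers stayed at 13.3 to 18.9 CPM over the genotype libraries. The part of these cell types in the values of the NF-kB targets was not tested.

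Senexin B went with lower Icam1 at both times, and at 24 h with higher Nfkbia and lower Nfkb1. The calls of Nfkbia and Nfkb1 held in 13 of 13 alternatives each, that of Icam1 in 8 of 12 at 16 h and 4 of 12 at 24 h. At 16 h 1 of the 8 genes was called, lower, where 7.75% of all genes were called, 4.36% higher and 3.39% lower. At 24 h 3 were called, 1 higher and 2 lower, where 27.5% of all genes were called, 14.8% higher and 12.7% lower, so the share among the 8 was near that of all genes. The median log2 fold change of the 8 was -0.12 at 16 h and 0.18 at 24 h, beside -0.01 and 0.00 over all genes.

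**Figure D5:**
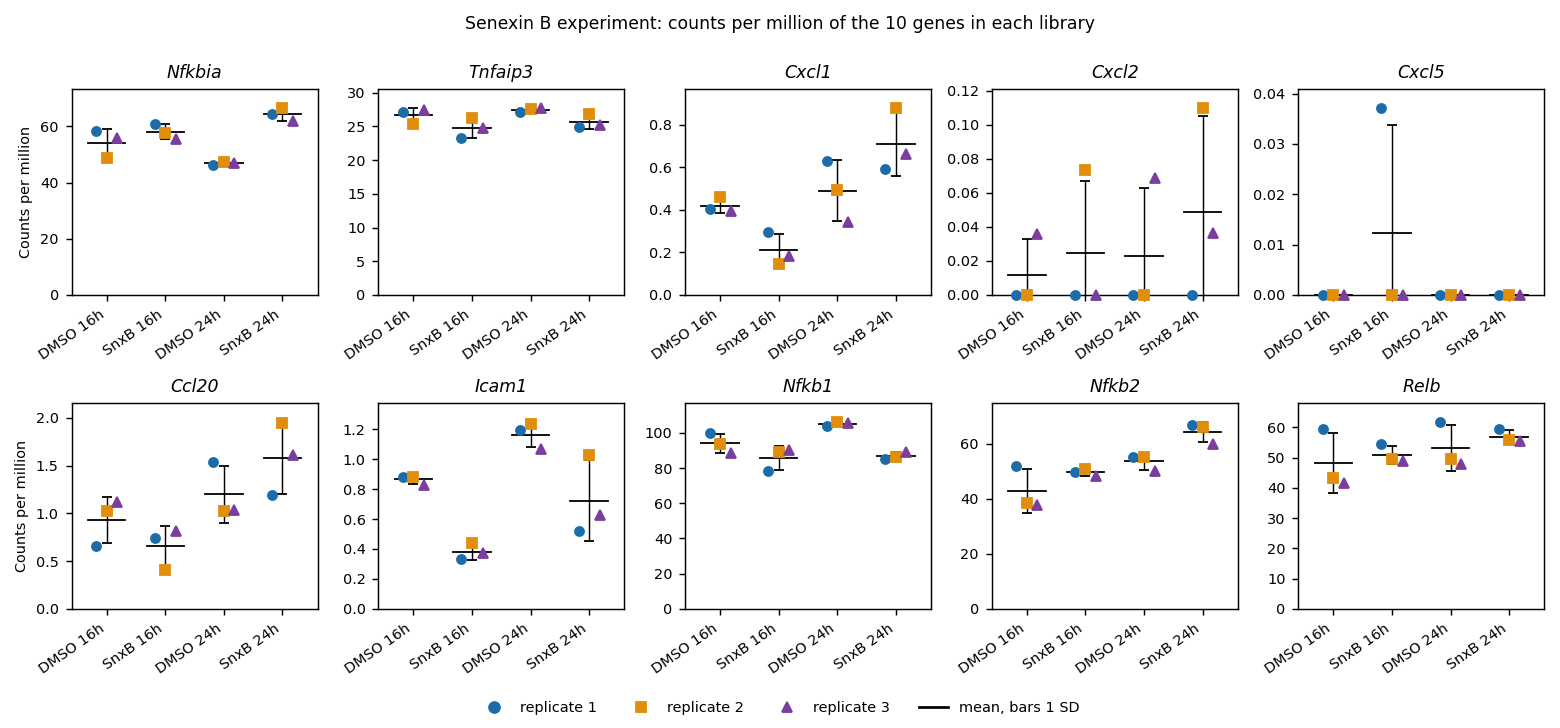
CPM of each gene on a linear axis from 0 in the 12 libraries of the Senexin B experiment, a panel per gene, with symbols for the 3 replicates, a horizontal line for the group mean and error bars of 1 SD. Nfkbia at 24 h lies between 62.0 and 66.6 CPM with Senexin B and between 46.3 and 47.3 with DMSO.

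Nfkbia stood at 58.2, 48.7 and 55.8 CPM in DMSO 16h, 60.9, 57.8 and 55.6 with Senexin B at 16 h, 46.3, 47.3 and 46.9 in DMSO 24h, and 64.4, 66.6 and 62.0 with Senexin B at 24 h. At 16 h the groups overlapped, and at 24 h all treated libraries lay above all DMSO libraries. The log2 fold change was 0.10 ± 0.0714 at 16 h (adjusted p = 0.455) and 0.46 ± 0.0715 at 24 h (adjusted p = 0.000489), a 1.37-fold level, and the later call held in 13 of 13 alternatives. Tnfaip3, which rose in Double-KO, stood at 27.2, 25.4 and 27.4 CPM in DMSO 16h, 23.3, 26.2 and 24.8 with Senexin B at 16 h, 27.2, 27.6 and 27.7 in DMSO 24h, and 24.9, 26.8 and 25.2 with Senexin B at 24 h. At 24 h its treated libraries lay below all DMSO libraries, with a log2 fold change of -0.10 ± 0.0705 (adjusted p = 0.321) and an interval from -0.25 to 0.05, and at 16 h it was -0.11 ± 0.0707 (adjusted p = 0.419).

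The chemokines had low counts in this experiment too and none was called. Cxcl1 had 11, 13 and 11 counts in DMSO 16h, 8, 4 and 5 with Senexin B at 16 h, 18, 14 and 10 in DMSO 24h, and 16, 24 and 18 with Senexin B at 24 h. It was below every DMSO library at 16 h (-0.99 ± 0.374, adjusted p = 0.129) and overlapped DMSO at 24 h (0.54 ± 0.287, adjusted p = 0.181). Ccl20 had 18, 29 and 31 counts in DMSO 16h, 20, 11 and 22 with Senexin B at 16 h, 44, 29 and 30 in DMSO 24h, and 32, 53 and 44 with Senexin B at 24 h. Its groups overlapped at both times, with log2 fold changes of -0.52 ± 0.322 (adjusted p = 0.379) and 0.40 ± 0.271 (adjusted p = 0.295). Cxcl2 had at most 3 counts in a library and Cxcl5 at most 1, so a difference was not detectable at this depth.

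Icam1 fell with Senexin B at both times. It stood at 0.882, 0.882 and 0.828 CPM in DMSO 16h, 0.335, 0.441 and 0.370 with Senexin B at 16 h, 1.19, 1.23 and 1.07 in DMSO 24h, and 0.520, 1.03 and 0.624 with Senexin B at 24 h. The counts behind these were 23 to 35 in DMSO and 9 to 28 with Senexin B, and treated and DMSO libraries did not overlap at either time. The log2 fold change was -1.17 ± 0.283 at 16 h (adjusted p = 0.0207), a 0.445-fold level, and -0.68 ± 0.241 at 24 h (adjusted p = 0.0484), a 0.624-fold level. The first call held in 8 of 12 alternatives and was lost without DMSO 16h replicate 2 (adjusted p = 0.0583) or without any of the Senexin B libraries (adjusted p = 0.081, 0.0509 and 0.0754). The second held in 4 of 12, with -0.49 (adjusted p = 0.167) without Senexin B 24h replicate 1, -1.02 (adjusted p = 0.0125) without replicate 2 and -0.59 (adjusted p = 0.158) without replicate 3. It was lost also without DMSO 24h replicate 1, 2 or 3 (adjusted p = 0.110, 0.118 and 0.0710), in DESeq2 (adjusted p = 0.143), with no filter on low counts (adjusted p = 0.0986) and with only the groups compared in the fit (adjusted p = 0.0827).

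Nfkb1 stood at 99.8, 93.7 and 88.6 CPM in DMSO 16h, 78.2, 89.2 and 90.5 with Senexin B at 16 h, 104, 106 and 106 in DMSO 24h, and 85.1, 86.3 and 89.4 with Senexin B at 24 h. The groups overlapped at 16 h and were apart at 24 h, where the log2 fold change was -0.28 ± 0.0688 (adjusted p = 0.00924), a 0.826-fold level that was called in 13 of 13 alternatives. At 16 h it was -0.13 ± 0.0689 (adjusted p = 0.291). Nfkb2 moved the other way, from 55.3, 55.2 and 50.1 CPM in DMSO 24h to 66.7, 66.2 and 60.0 with Senexin B (0.26 ± 0.102, adjusted p = 0.0698), and was called with the replicate number as a block (adjusted p = 0.0164). Its levels at 16 h were 52.1, 38.4 and 37.9 CPM with DMSO and 49.8, 50.9 and 48.3 with Senexin B, with DMSO replicate 1 above the treated range (0.21 ± 0.104, adjusted p = 0.239, and called without that library, adjusted p = 0.00445). Relb overlapped at both times, at 41.4 to 59.5 CPM with DMSO and 48.9 to 54.3 with Senexin B at 16 h, and 47.9 to 61.9 and 55.5 to 59.4 at 24 h, with log2 fold changes of 0.08 ± 0.124 (adjusted p = 0.757) and 0.10 ± 0.124 (adjusted p = 0.593).

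At 16 h 2 of the 8 genes had every treated library below every DMSO library (12.6% of all genes) and none had every one above (12.2%). At 24 h 3 lay wholly below (Tnfaip3, Icam1 and Nfkb1) and 2 wholly above (Nfkbia and Nfkb2), against 22.1% and 23.5% of all genes.

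The effects at 24 h and 16 h were compared directly. edgeR called 0 of the 8 genes and 0% of all genes, with 3 of the 8 and 12.9% of all genes below 0.05 before adjustment, while DESeq2 called 0 of the 8 and 69 of all genes. The 3 were Cxcl1, whose effect was higher at 24 h by 1.53 ± 0.472 (adjusted p = 0.271), Ccl20 by 0.92 ± 0.421 (adjusted p = 0.384) and Nfkbia by 0.36 ± 0.101 (adjusted p = 0.268). With the replicate block 60 of all genes and 0 of the 8 were called. A difference between the times was thus not shown for any of them.

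DMSO libraries alone differed between the times. edgeR called 0 of the 8 genes, where 11.1% of all genes were called, with 3 of the 8 and 28.1% of all genes below 0.05 before adjustment, and DESeq2 called 1. At 24 h Nfkb2 was at 0.32 ± 0.103 on the log2 scale relative to 16 h (adjusted p = 0.0568), Nfkbia at -0.21 ± 0.0717 (adjusted p = 0.0704) and Nfkb1 at 0.16 ± 0.0687 (adjusted p = 0.136). Without DMSO 16h replicate 1 Nfkb2 (adjusted p = 0.00102) and Relb (adjusted p = 0.0403) were called, and without DMSO 16h replicate 2 Nfkbia (adjusted p = 0.0187). Nfkbia in DMSO was lower in every 24 h library (15.8% of all genes) and Nfkb1 and Icam1 were higher in every one (12.9%), with Icam1 at 0.43 ± 0.233 (adjusted p = 0.249). For these 3 genes the DMSO difference, not called in the main test, ran opposite to the Senexin B difference at 24 h. Both comparisons hold the same 24 h DMSO libraries with opposite sign, so the opposite directions are no independent finding. The later effects are given against the 24 h DMSO libraries alone.

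Of the 111 other pathway genes, 87 were tested in the Senexin B experiment. At 16 h 12 were higher and 1 lower (14.9%, against 7.75% of all genes), and 16 higher and 4 lower with the replicate block, under which 2293 of all genes were called in place of 1198. At 24 h 18 were higher and 10 lower (32.2%, against 27.5%), with 11 higher without DMSO 24h replicate 3 and 5 lower without Senexin B 24h replicate 2. With the replicate block 21 were higher and 16 lower at 24 h, and 5712 of all genes were called in place of 4252. Between DMSO 24h and DMSO 16h 8 were higher and 2 lower (11.5%, against 11.1% of all genes, 4.52% higher and 6.59% lower). For reading the lists below, 4.36% of all genes were called higher and 3.39% lower at 16 h, and 14.8% and 12.7% at 24 h. Between the DMSO times 15 were higher without DMSO 16h replicate 1, 3 without DMSO 16h replicate 3, and 1, 3 and 4 without DMSO 24h replicate 1, 2 and 3.

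Among the other targets, both genes of an epithelial oxidase rose at both times. Duoxa2, the maturation factor, went from 3.71 to 3.78 CPM in DMSO 16h to 9.78 to 11.2 with Senexin B (1.52 ± 0.11, adjusted p = 3.41e-06) and at 24 h was called at 1.30 ± 0.11 (adjusted p = 3.85e-06). Duox2, the oxidase, was called at 1.05 ± 0.10 (adjusted p = 3.57e-05) and 0.75 ± 0.10 (adjusted p = 0.000172). Saa1, an acute-phase protein gene, had 1 to 4 counts in each DMSO library and 25 to 43 with Senexin B, and was called at both times. It lay below the filter's minimum of 10 counts in every DMSO library and entered the test through the treated libraries, so that call follows from the filter in part, and without it 11 pathway genes were higher at 16 h and 17 at 24 h. Plaur, the urokinase receptor gene, was called at 16 h (1.05 ± 0.13, adjusted p = 0.000329) and Ccnd1 at 24 h (0.72 ± 0.08, adjusted p = 2.94e-05). Of 25 targets tested, 6 were higher and 1 lower at 16 h, and 8 higher and 2 lower at 24 h.

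Of 4 ligands tested, Il18 rose at 16 h (1.00 ± 0.19, adjusted p = 0.00434) and at 24 h (1.06 ± 0.19, adjusted p = 0.0011), and Il33, which was higher in Double-KO, fell at 24 h (-1.32 ± 0.30, adjusted p = 0.00555). Il33 had 19 to 23 counts in each DMSO 24h library and 7 to 9 with Senexin B. Every treated 24 h library thus lay below the filter's minimum count, and Il33 entered the test through other libraries. Its call therefore follows from the filter in part, and the number of pathway genes lower at 24 h includes it. Of 14 receptors, 2 were higher at 16 h and 2 higher and 2 lower at 24 h. Tnfrsf11a, the receptor RANK, was called at 0.45 ± 0.09 (adjusted p = 0.00499) and 0.46 ± 0.09 (adjusted p = 0.00158), and Nod2, a sensor of bacterial cell wall, at 0.56 ± 0.13 (adjusted p = 0.0158) and 0.51 ± 0.13 (adjusted p = 0.009). The sensors Tlr3 (-0.62 ± 0.15, adjusted p = 0.0085) and Tlr5 (-0.84 ± 0.25, adjusted p = 0.0224) fell at 24 h.

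Of 22 adaptors and kinases, edgeR called 0 at 16 h and 6 at 24 h, 3 in each direction. They included Tab2 (-0.32 ± 0.07, adjusted p = 0.00568), Tradd (0.32 ± 0.09, adjusted p = 0.0171), Ikbkg (-0.23 ± 0.06, adjusted p = 0.0196), the scaffold of the IkB kinase, and Traf5 (0.44 ± 0.14, adjusted p = 0.0357). Of 10 other inhibitors, 0 were called at 16 h and 3 at 24 h, with the linear-ubiquitin protease gene Otulin higher (0.38 ± 0.10, adjusted p = 0.00936), the deubiquitinase gene Cyld lower (-0.23 ± 0.06, adjusted p = 0.0142) and the ribonuclease gene Zc3h12a higher (0.30 ± 0.10, adjusted p = 0.0343). Rela and Rel were not called at either time. Of 10 other chemokines, Cxcl16, Ccl6 and Ccl9 were higher at 16 h, at 0.53 ± 0.11 (adjusted p = 0.008), 0.47 ± 0.12 (adjusted p = 0.0305) and 0.79 ± 0.22 (adjusted p = 0.0391). At 24 h Ccl9 (1.05 ± 0.21, adjusted p = 0.00258) and Cxcl16 (0.30 ± 0.11, adjusted p = 0.0497) were higher and Cxcl11 lower (-1.24 ± 0.35, adjusted p = 0.0163).

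Summed Paneth cell markers were at 2067 to 2180 CPM in DMSO 24h and 972 to 1327 with Senexin B at 24 h, with Lyz1 (-1.02 ± 0.18, adjusted p = 0.00123) and 3 of the other 4 genes called lower. At 16 h the sums were 1423 to 2075 and 1143 to 1479 CPM. Summed M cell markers were higher in every treated library, at 89.1 to 95.4 CPM in DMSO 16h against 110 to 123 with Senexin B and 94.8 to 96.5 in DMSO 24h against 122 to 127. That sum rests mostly on Tnfrsf11a, itself called with Senexin B, and Anxa5, at 726 to 2208 and 375 to 1676 counts over all libraries. The defining gene Gp2 was at 0 counts in 20 libraries. Summed epithelial markers (7 genes) were higher too, at 7385 to 8661 CPM in DMSO 16h against 8814 to 9849 with Senexin B and 7708 to 8289 in DMSO 24h against 9396 to 10082. At 24 h summed tuft cell markers were at 19.6 to 22.4 CPM with DMSO and 24.5 to 29.1 with Senexin B, and summed goblet cell markers at 3031 to 3534 and 2463 to 2836. Summed leukocyte markers were at 3.52 to 4.91 CPM over these 12 libraries, though the macrophage receptor gene Csf1r was called higher at 24 h (0.80 ± 0.29, adjusted p = 0.0498). The part of these markers in the values of the NF-kB targets was not tested.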

How the data were processed

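RNA of 24 organoid libraries was sequenced, and the authors aligned the reads to GRCm38 with STAR and deposited raw counts of reads per gene, in an unstranded column and 2 columns for the strands. The submitters' processing notes name STAR 2.6.0c, GRCm38.p6 and FastQC. The last strand column was used for both experiments. Its share of the stranded counts was 49.6 to 49.7% in the genotype libraries, which therefore hold no strand information, and 87.9 to 90.5% in the Senexin B libraries, and the unstranded column was an alternative. The labels describe oligo(dT) selection, and the Senexin B libraries also as rRNA-depleted total RNA. The summary entries of the tables (unmapped, multimapping, no gene, ambiguous) held 63.1 to 65.2% and 21.5 to 25.1% of the reads, of 41879958 to 42068649 and 36042777 to 36255610 per library, and stayed out of library sizes and tests.

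Each experiment was normalised separately by TMM and filtered with filterByExpr (minimum count 10), and its 12 libraries were fitted together in edgeR 4.0.16 (R 4.3.3, limma 3.58.1) for the quasi-likelihood test, with Benjamini-Hochberg adjustment over all genes tested and a threshold of 0.05. CPM values are counts per 1000000 of the TMM-scaled library size. Intervals are 95% confidence intervals. The scripts were tested on simulated data with 200 genes changed, of which the test recovered 160 (80.0%) for Double-KO against WT with 12 false calls, and 179 (89.5%) for Senexin B at 24 h with 15 false calls. Fold changes carry standard errors from the fit, with 3 libraries in each group. No pair of replicates was a duplicate, but some were close. As a multiple of sampling noise, the spread between WT replicates 1 and 2 was 2.31, and between CDK19-KO replicates 2 and 3 it was 4.01. Between replicates 2 and 3 with Senexin B it was 4.31 at 16 h and 4.49 at 24 h. The widest pair was Double-KO replicates 1 and 3, at 35.9.

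The target genes, the pathway and marker lists and the tests were chosen with earlier results of these data known, so no pattern counts as independent support. Named in the text are all 10 genes, Cdk8 and Cdk19, and marker genes. Also named, per experiment, are the 5 genes most like Nfkbia and Cxcl1 (mean normalised count of 50 or more). Genes called in each pathway list are named for the knockouts against WT and for Senexin B against DMSO. These are up to 4 per list and comparison, by smallest adjusted p. Pathway genes called for Double-KO against CDK19-KO and between the DMSO times were counted, without a list of names. Alternatives were the Wald test of DESeq2 1.42.0, its size factors in edgeR, unstranded counts, a fit of only the groups compared, no filter, a minimum of 10 counts in every library, the replicate number as a block, each library left out in turn and, for groups without CDK19, both libraries with Cdk19 at the WT level left out. The same alternatives for the pathway lists were added after seeing the data.

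Whether replicate numbers pair libraries was checked by correlating the deviations of same-numbered libraries from their group means. For Senexin B against DMSO the correlations of replicates 1, 2 and 3 were 0.303, 0.101 and 0.110 at 16 h and 0.377, 0.137 and 0.187 at 24 h, all over 0.1. In no other comparison were all 3 over 0.1. Between libraries of different number the highest correlation was 0.154 at 16 h, above replicates 2 and 3. At 24 h it was 0.147, above replicate 2. Pairing by number was thus not shown, and the replicate block is given as an alternative only.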

Additional observations from a re-analysis of the deposited data

How the results depend on the processing

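Of the fold changes of the target genes recomputed under alternatives other than leaving out a library, 537 kept their direction and side of the threshold, 11 gained a call, 10 lost one and 18 changed sign. Of those with a library left out, 487 stayed, 7 gained, 30 lost and 52 changed sign. No called value of a target gene changed sign. For the other pathway genes only the numbers called were compared. The number of the target genes called in CDK8-KO against WT (1) was 2 in DESeq2, 4 with no filter, 0 with unstranded counts and 0 with only the groups compared. Without both libraries with Cdk19 at the WT level it was 1 for Double-KO against WT (3) and 1 for Double-KO against CDK19-KO (3). It was 0 for Senexin B at 16 h (1) with at least 10 counts in every library, where Icam1 was no longer tested, and for DMSO 24h against 16h (0) it was 1 in DESeq2, 1 with no filter, 1 with at least 10 counts and 2 with the replicate block. With a library left out, the counts ran from 0 to 4 in CDK8-KO, from 1 to 3 in Double-KO, from 1 to 5 for Double-KO against CDK19-KO, from 0 to 2 for Senexin B at 16 h and from 0 to 2 between DMSO times. Signs that changed without both of these libraries gave log2 fold changes of 0.0028 (Cxcl1, CDK19-KO against WT), -0.15 (Nfkbia, Double-KO against WT), -0.30 and -0.022 (Cxcl1 and Relb, Double-KO against CDK8-KO), 0.046 (Icam1, Double-KO against CDK19-KO) and departures from additivity of -0.094, -0.31 and -0.082 (Nfkbia, Cxcl1 and Ccl20). Unstranded counts turned Icam1 to -0.18 in CDK19-KO and -0.22 in Double-KO against WT, Nfkb2 to 0.0078 for Double-KO against CDK8-KO and the departure of Nfkb1 to -0.0049. For Double-KO against CDK8-KO the replicate block gave 0.031 for Ccl20 and 0.012 for Nfkb2, and DESeq2 size factors 0.00025 for Nfkb2. The difference between the Senexin B effects at 24 h and 16 h became -0.0038 for Tnfaip3 with size factors, and -0.0083 for Tnfaip3 and -0.00037 for Relb with at least 10 counts. With a library left out, log2 fold changes that turned sign ran in CDK8-KO from -0.12 to 0.021 (Nfkb1) and -0.10 to 0.43 (Relb), in CDK19-KO from -0.15 to 0.12 (Cxcl1) and -0.064 to 0.26 (Icam1), and in Double-KO from -0.40 to 0.30 (Icam1) and -0.15 to 0.26 (Nfkbia). For Double-KO against CDK8-KO they ran from -0.49 to 0.84 (Ccl20), -0.30 to 0.82 (Cxcl1), -0.29 to 0.24 (Nfkb2) and -0.16 to 0.37 (Relb), and against CDK19-KO from -0.45 to 0.24 (Icam1) and -0.030 to 0.0068 (Nfkb1). Departures from additivity ran from -0.24 to 1.08 (Ccl20), -0.29 to 0.83 (Cxcl1), -0.029 to 0.10 (Nfkb1), -0.47 to 0.053 (Nfkb2), -0.16 to 0.23 (Nfkbia) and -0.013 to 0.50 (Relb). Relb with Senexin B at 16 h ran from -0.015 to 0.26, Cxcl1 between DMSO times from -0.0049 to 0.42, and the difference between the Senexin B effects from -0.12 to 0.13 (Nfkb2), -0.17 to 0.14 (Relb) and -0.036 to 0.040 (Tnfaip3). For Senexin B against DMSO, the replicate block changed no call but that of Nfkb2. In other comparisons it lost Cxcl1 in Double-KO against WT (1.67, adjusted p = 0.0504) and gained Nfkb2 (adjusted p = 0.0101) and Nfkbia (adjusted p = 0.0377) between DMSO times. Over all genes, the calls ranged more than 1.5 times from the reported number for CDK8-KO (804, 707 to 1276, and 196 to 699 with a library left out), CDK19-KO (0, 0 to 666 and 0 to 521), Double-KO against WT (2700, 2551 to 3172 and 1348 to 2452), against CDK8-KO (4, 0 to 403 and 3 to 839) and against CDK19-KO (3953, 2867 to 4504 and 2399 to 4318), additivity (4, 0 to 728 and 0 to 467), Senexin B at 16 h (1198, 725 to 2293 and 657 to 1819) and 24 h (4252, 4105 to 5712 and 2656 to 3805), their difference (0, 0 to 121 and 0 to 26) and DMSO times (1719, 385 to 3281 and 434 to 2296). The counts of pathway genes ranged from 1 to 16 higher in CDK8-KO, 4 to 17 in Double-KO, 11 to 27 for Double-KO against CDK19-KO, 0 to 4 against CDK8-KO, 9 to 16 with Senexin B at 16 h, 11 to 21 at 24 h and 1 to 20 between DMSO times (20 with the replicate block), with 1 to 3, 0 to 4, 0 to 5, 0 to 2, 0 to 4, 5 to 16 and 0 to 6 lower. Depth limits Cxcl2 and Cxcl5, with at most 11 and 5 counts in a library, and leaves Cxcl1, Ccl20 and Icam1 with wide intervals. The cause of these changes was not tested.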

Other observations

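Over the 12 genotype libraries the genes whose log2 CPM followed that of Nfkbia most closely were Inf2 (Pearson r = 0.932), Bcas1 (0.922), Trib1 (0.920), Ajuba (0.914) and Ano7 (0.913). For Cxcl1 they were Trim11 (0.966), Ikbke (0.957), Tmem43 (0.954), Klhdc7a (0.950) and Endod1 (0.950). Over the 12 Senexin B libraries they were Rps24 (0.977), Rpl13 (0.973), Tmem242 (0.973), Rpl26 (0.968) and Rpl14 (0.967) for Nfkbia, 4 of them genes of ribosomal proteins, and Gtf2b (0.918), Bcam (0.909), Ctps2 (0.873), Ensa (0.866) and C1s1 (0.865) for Cxcl1. These correlations were picked as the highest among all genes with enough counts, the points share libraries and group differences, and they carry no test.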
